A study of Homo sapiens with 57 samples.

Results

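The genes described here are 7 inflammatory genes of the 412 on a targeted expression panel, and they were measured in human kidney cells treated with the herbs of the Wenshenyang recipe. They are *IL6* (Entrez 3569), the chemokines *CXCL1* (2919), *CXCL2* (2920) and *CXCL8* (3576, also called IL8), the cytokine *IL18* (3606), the iron-carrier protein gene *LCN2* (3934) and the adhesion molecule gene *VCAM1* (7412). They were chosen as inflammatory genes and by their response to Yinyanghuo: all 7 were selected on that herb against its own control wells. Their values with Yinyanghuo are therefore given as a description with no test, and only the Roucongrong and Gusuibu wells, which took no part in the choice, were tested.

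HK-2 cells come from an immortalised line of the human kidney's proximal tubule. Wells of a multiwell plate held 3000 of these cells and received for 24 h a 90% ethanol extract at 100 μg/mL of Roucongrong (*Cistanche deserticola*, 3 wells), Gusuibu (*Drynaria fortunei*, 3 wells) or Yinyanghuo (*Epimedium brevicornu*, 3 wells). Each herb had its own set of 16 wells with 0.5% DMSO, so there were 57 wells of 1 cell line at 1 dose and 1 time. The DMSO content of the herb wells is not given in the sources used here, and a herb cannot be told apart from the set in which it was run. The assay was RASL-seq: a probe pair binds neighbouring stretches of an mRNA, and the joined pair is amplified by PCR and counted by sequencing. A count is the number of ligated probe reads of a gene in a well, and CPM is that count scaled to a common total by TMM, which sets the wells of a comparison on the same footing.

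Total counts ran from 13581 to 75969 per well, and the shallowest well of all was Yinyanghuo well 2. The floor used here was 3 counts, equal to 39.5 CPM in the deepest well and 221 in the shallowest. Averaged over all wells, *IL6* had 1966 counts, *IL18* 80.0, *LCN2* 47.9, *CXCL2* 17.9, *VCAM1* 15.4, *CXCL8* 3.74 and *CXCL1* 3.44, so single wells of *CXCL8* and *CXCL1* rest on a handful of reads. Probes differ in how well they ligate, and these counts do not rank the genes by mRNA level. The panel holds 0 of 13 defining markers of proximal tubule and other epithelium, so the HK-2 label could not be checked against them. It holds 3 of 9 leukocyte markers (*ITGAM*, *ITGAX*, *ITGB2*) and 2 of 6 endothelial ones (*CDH5*, *KDR*). The leukocyte markers summed to between 1 and 25 counts in any well, with 147 to 821 CPM of unscaled counts (median 708) in the Yinyanghuo wells and 147 to 770 (median 304) in their DMSO wells. The endothelial ones summed to 137 to 1104 CPM (median 368) and 151 to 1095 CPM (median 250.5) in the same groups. The part of either list in the results was not tested.

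NF-kB is a family of transcription factors held in the cytoplasm by inhibitor proteins until a cytokine, a microbial product or another stress frees it to enter the nucleus. Tubule epithelial cells answer such signals by releasing IL-6, which acts through its receptor and gp130 on the JAK-STAT pathway, and chemokines that attract neutrophils. Genes of this kind usually carry a short NF-kB site just before their start, often near AP-1 and C/EBP sites that act with it.

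The genes lie on 5 chromosomes. In the GRCh38.p14 annotation of RefSeq, *IL6* spans chr7:22727200-22731998, *VCAM1* chr1:100719742-100739045, *LCN2* chr9:128149453-128153453 and *IL18* chr11:112143260-112164094. The chemokine genes share chromosome 4, with *CXCL8* at chr4:73740569-73743716, *CXCL1* at chr4:73869393-73871308 and *CXCL2* at chr4:74097040-74099195. RefSeq start-site windows were at hand for 6 of the 7 genes, all but *IL18*. The 110 bases printed below are shown because they hold the NF-kB-type matches that these genes share, which stand in capitals. Each runs 5′ to 3′ on the strand of its gene and ends at the base before the start, except that of *LCN2*, which covers positions -200 to -91 before the start. The regions are chr7:22727090-22727199 (plus strand) for *IL6*, chr4:73740459-73740568 (plus) for *CXCL8*, chr4:73869283-73869392 (plus) for *CXCL1*, chr4:74099196-74099305 (minus) for *CXCL2*, chr1:100719632-100719741 (plus) for *VCAM1* and chr9:128149253-128149362 (plus) for *LCN2*.
IL6: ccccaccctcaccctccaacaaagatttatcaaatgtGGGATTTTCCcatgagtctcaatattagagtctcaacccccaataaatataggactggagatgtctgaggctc
CXCL8: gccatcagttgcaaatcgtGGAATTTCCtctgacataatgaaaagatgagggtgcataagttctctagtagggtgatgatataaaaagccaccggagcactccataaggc
CXCL1: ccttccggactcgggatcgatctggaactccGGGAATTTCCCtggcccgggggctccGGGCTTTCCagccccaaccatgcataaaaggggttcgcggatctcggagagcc
CXCL2: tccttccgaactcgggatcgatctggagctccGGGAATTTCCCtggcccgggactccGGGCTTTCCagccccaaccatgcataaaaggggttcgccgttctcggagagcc
VCAM1: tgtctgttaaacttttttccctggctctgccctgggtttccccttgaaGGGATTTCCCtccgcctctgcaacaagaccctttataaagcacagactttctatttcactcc
LCN2: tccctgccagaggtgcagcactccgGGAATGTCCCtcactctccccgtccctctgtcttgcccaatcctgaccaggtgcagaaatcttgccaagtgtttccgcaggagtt

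The capitals mark matches, on either strand, to the 10-letter NF-kB consensus or to the motif GGNNTTTCC, which overlaps it. The windows searched were 300 bases long, from 250 bases before to 50 after the start. The consensus was found in 5 of the 6 windows (*IL6*, *CXCL1*, *CXCL2*, *VCAM1* and, on the opposite strand, *LCN2*). It was found in 13.5% of the 526 windows of panel genes and in 11.3% of the 35116 RefSeq windows. GGNNTTTCC was found in 5 of the 6 (all but *LCN2*), in 7.79% of the panel windows and in 6.26% of all windows. The genes were grouped as *IL6* and NF-kB-type cytokines and chemokines, so these counts carry no evidence of their own. *CXCL8* had only this second form, at positions -91 to -83. The AP-1 motif TGANTCA was present in *CXCL8* (-137 to -131) and *LCN2* (-52 to -46), in 8.75% of the panel windows and in 7.71% of all windows. The C/EBP motif TTGCNNAA was present in *IL6* (-155 to -148), *LCN2* (-143 to -136) and *CXCL2* (-188 to -181). It was present in 9.13% of the panel windows and in 10.5% of all windows. *CXCL1* and *CXCL2* are close paralogs, and their printed stretches share an unbroken run of 42 bases, against at most 11 for any other pair. The probe sequences were not used here, so reads that *CXCL1* and *CXCL2* may share could not be examined. A match is a string of letters, and binding was not measured in these wells.

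With Yinyanghuo, *IL6*, the 3 chemokine genes, *IL18* and *VCAM1* were higher than in its DMSO wells and *LCN2* was lower. *IL6*, the cytokine of the acute phase response, had 115024, 83177 and 110164 CPM in wells 1 to 3, against a lowest, median and highest of 37206, 40156 and 48297 CPM in the 16 DMSO wells. No DMSO well came near the treated wells. The mean was 102788 ± 17157 CPM (SD, n = 3) with the herb and 41015 ± 3243 (SD, n = 16) without it, which the fit put at 2.51-fold (log2 fold change 1.33, SE 0.08). *IL6* reads alone made up 8.67% to 11.1% of all counts in these wells and 3.77% to 4.77% in their DMSO wells. CPM is relative to the other panel reads of a well, and in raw counts well 2 had 1178, inside the DMSO range of 808 to 1887. A higher CPM could come from more RNA per cell or from more cells with the RNA, and these cannot be told apart in a whole well.

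**Figure D1:**
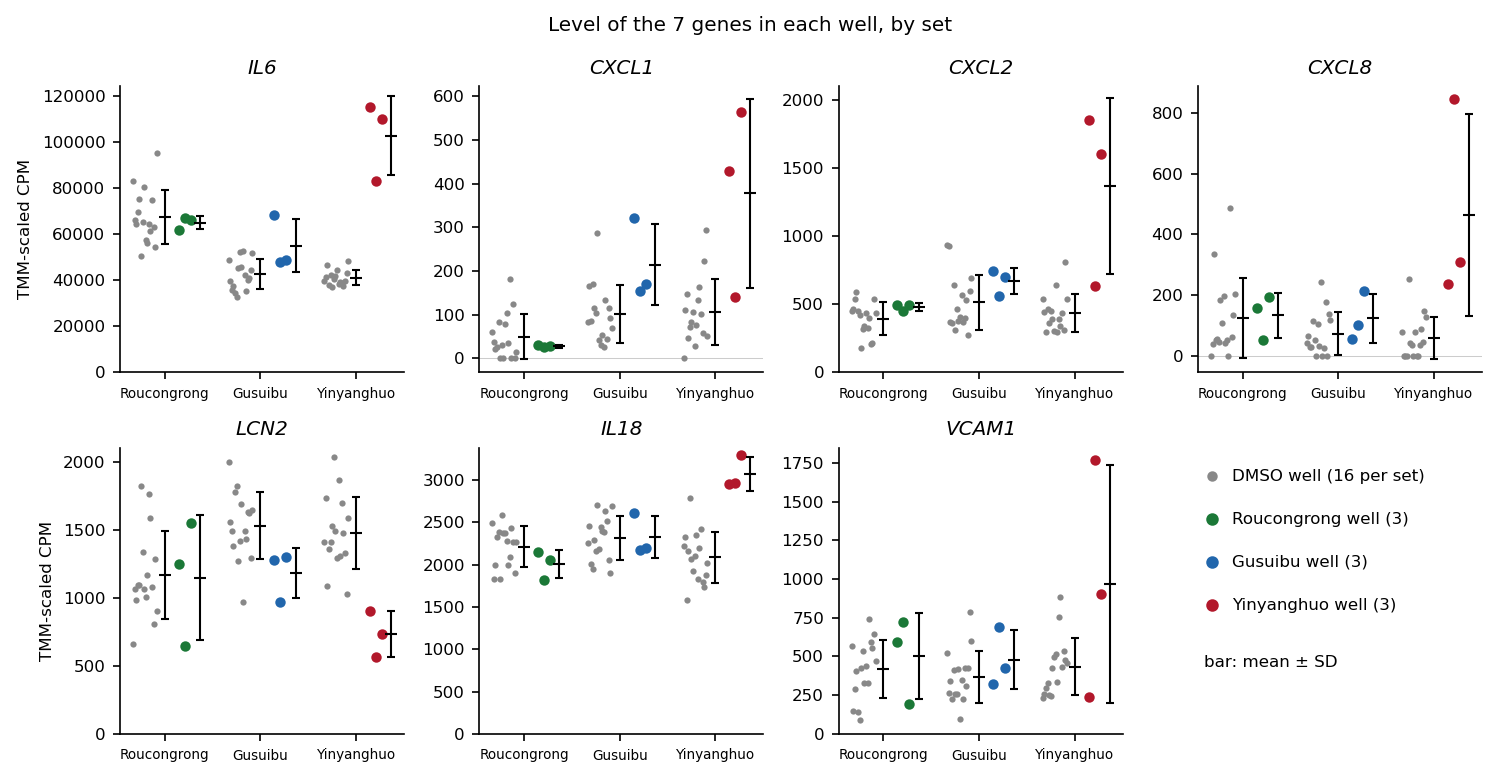
TMM-scaled CPM (vertical axis, linear) of the 7 genes in every well, by set: grey points are the 16 DMSO wells, coloured points the 3 herb wells, and bars the mean ± SD. The Yinyanghuo points of *IL6* and *IL18* lie above all of their DMSO wells and those of *LCN2* below all of them, while the Roucongrong and Gusuibu points mix with theirs apart from single wells.

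*CXCL8*, the main neutrophil chemokine of human epithelium, had 5, 12 and 11 counts in the Yinyanghuo wells (238, 847 and 310 CPM). Its DMSO wells had 0 to 7 counts with a median of 1, and 6 of the 16 had none. One DMSO well, at 253 CPM, reached above the lowest treated well. The fitted fold change was 7.01 (log2 2.81, SE 0.69), with a 95% interval of 2.62 to 18.8 that shows how little the few reads fix it. Without well 2 the log2 value was 2.14, a fold of 4.40.

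*CXCL1* and *CXCL2*, chemokines that act on the same receptor CXCR2, differed between wells. *CXCL2* had 1856, 635 and 1606 CPM (39, 9 and 57 counts) against 297 to 809 CPM in DMSO, median 414. *CXCL1* had 428, 141 and 564 CPM (9, 2 and 20 counts) against 0 to 294, median 92.3. For both genes wells 1 and 3 were above every DMSO well and well 2 was among them. The log2 fold changes were 1.66 (SE 0.27) for *CXCL2* and 1.89 (SE 0.52) for *CXCL1*, and leaving out each well in turn moved them between 1.41 (without well 1) and 1.95 (without well 2) for *CXCL2* and between 1.47 (without well 3) and 2.22 (without well 2) for *CXCL1*.

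*VCAM1*, whose product lets leukocytes adhere, was the least even. It had 238, 1765 and 902 CPM (5, 25 and 32 counts) against 229 to 885 in DMSO, median 432. Well 1 lay near the bottom of the DMSO range and well 2 at 1.95 on the log2 scale above the DMSO mean. The log2 fold change was 1.08 (SE 0.39), and 1.54 without well 1 but 0.45 without well 2. The well with the highest *VCAM1* and *CXCL8* was thus the well with the lowest *CXCL1*, *CXCL2* and *IL6* of the 3, and it was also the shallowest, with 13581 counts. The part of depth in this was not tested.

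*IL18*, a cytokine made as a precursor and cut by caspase-1, showed the smallest change and a small spread. It had 2951, 2966 and 3297 CPM against 1582 to 2783, median 2083, so that each treated well was above all DMSO wells. The log2 fold change was 0.56 (SE 0.15), just short of the fold criterion of 0.58. *LCN2*, which encodes a siderophore-binding protein released by injured tubules, was the 1 gene that was lower. It had 904, 565 and 733 CPM against 1030 to 2033, median 1447, with no overlap. Its log2 fold change was -0.99 (SE 0.22), a fold of 0.504.

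By the study's criteria for a DEG (fold change above 1.5 or below 0.67 and an unadjusted p under 0.05), 6 of the 7 genes passed with Yinyanghuo, 5 higher and 1 lower, against 15% of the 400 panel genes tested. For 3 (*IL6*, *IL18* and *LCN2*) the wells did not overlap the DMSO wells, against 4.25%. The genes were selected on this contrast, so these counts carry no evidence of their own. The members nearest to the fold criterion were *LCN2* (log2 -0.99) and *VCAM1* (1.08) inside it and *IL18* (0.56) outside. The 6 became 5 without well 2, as *VCAM1* dropped out, and 7 without well 1, as *IL18* came in. All 7 also passed with RLE scaling, with TMM factors without the 7 genes and with DESeq2. There *IL18* was at 0.66, 0.59 and 0.65. The paper, which used DESeq, lists all 7 among its Yinyanghuo DEGs.

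With Roucongrong none of the 7 genes changed detectably. No gene passed the criteria, against 10.2% of 402 panel genes, none had an adjusted p under 0.05, against 2.99%, and none had all 3 wells outside the range of the DMSO wells, against 2.24%. Single wells did lie just below it, 1 each for *LCN2* and *IL18*. No member had an unadjusted edgeR p under 0.05 either, a threshold at which the panel's share was not counted. By the criteria DESeq2 also called 0. The median log2 fold change of the 7 was -0.04, beside -0.04 for all genes tested.

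*IL6* was the most precisely measured of them. The Roucongrong wells had 61921, 67077 and 65948 CPM and the DMSO wells 50735 to 95164, median 64846. The treated wells lay in the middle of the DMSO range. The log2 fold change was -0.06 (95% interval -0.32 to 0.21, edgeR adjusted p = 0.835, two-sided exact permutation p = 0.798), so that a fold above 1.16 lies outside the interval. *IL18* had 2149, 1821 and 2049 CPM against 1826 to 2590, with a log2 fold change of -0.14 (interval -0.42 to 0.14, adjusted p = 0.64, exact permutation p = 0.189). Its 3 wells were all below the DMSO median of 2275.

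*LCN2* was uneven with Roucongrong, at 1246, 649 and 1550 CPM against 660 to 1826 in DMSO. Its well 2 lay just under the lowest DMSO well and its well 3 near the top, and the log2 fold change was -0.04 (interval -0.56 to 0.47, adjusted p = 0.931). *CXCL2* had 498, 449 and 498 CPM, all above the DMSO median of 428 and within the DMSO range of 183 to 587, for a log2 fold change of 0.27 (SE 0.29, adjusted p = 0.677). *VCAM1* had 592, 723 and 194 CPM against 88.0 to 743 (log2 0.29, SE 0.42, adjusted p = 0.772).

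*CXCL1* had 1 count in each Roucongrong well, under the floor, and 0 to 9 counts in the DMSO wells, of which 4 were above the floor. At such counts a fall was not detectable, and the interval of the log2 fold change ran from -2.83 to 1.21 (adjusted p = 0.727). *CXCL8* had 5, 2 and 7 counts against 0 to 15, with a log2 fold change of 0.10 and an interval from -1.51 to 1.72 (adjusted p = 0.945). Its direction turned when well 1 or well 3 was left out.

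With Gusuibu *IL6*, the chemokine genes and *VCAM1* had positive and *LCN2* negative log2 fold changes, and none of the 7 genes passed the criteria or the adjusted test. *IL6* had 68190, 47905 and 48692 CPM against 32826 to 52782 in DMSO, median 41560. All 3 wells were above the DMSO median, and well 1, which had the fewest reads of the 3 (18177 counts), was above every DMSO well. The mean was 54929 ± 11491 CPM (SD, n = 3) against 42538 ± 6528 (SD, n = 16). The fitted log2 fold change was 0.37 (SE 0.12, interval 0.12 to 0.62), a fold of 1.29, with an edgeR adjusted p of 0.083 and a two-sided exact permutation p of 0.0289. The adjusted p was between 0.0241 and 0.0452 with RLE or total count scaling, with DESeq2 and with either filter on low counts, in each case at a fold below 1.5. It was 0.65 without well 1, where the log2 fold change was 0.17.

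*LCN2* had 1281, 973 and 1300 CPM against 971 to 2002 in DMSO, and all 3 wells were below the DMSO median of 1526. The log2 fold change was -0.38 (interval -0.74 to -0.02, adjusted p = 0.268, exact permutation p = 0.0341). *CXCL1* had 6, 6 and 8 counts (320, 154 and 170 CPM) against 1 to 11 counts (24.9 to 286 CPM, median 89.3). Each treated well was above the DMSO median and 1 was above all DMSO wells. Its log2 fold change of 0.97 (interval -0.06 to 2.0) had an edgeR adjusted p of 0.355 and an exact permutation p of 0.0248. It met the DEG criteria with RLE scaling (log2 1.03) and with total counts (1.05) and not otherwise against its own DMSO wells.

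*CXCL2* had 747, 563 and 703 CPM against 271 to 938, median 438, with a log2 fold change of 0.36 (SE 0.30, adjusted p = 0.576, exact permutation p = 0.167). *CXCL8* had 1, 4 and 10 counts against 0 to 9 (log2 0.89, SE 0.67, adjusted p = 0.52), and *VCAM1* 320, 691 and 426 CPM against 93.9 to 786 (log2 0.43, SE 0.35, adjusted p = 0.556). *IL18* was level, at 2614, 2176 and 2195 CPM against 1896 to 2706, with a log2 fold change of -0.01 and an interval from -0.28 to 0.27 (adjusted p = 0.986). Its sign changed with the scaling.

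In counts, 0 of the 7 genes met the criteria with Gusuibu, against 9.45% of 402 panel genes, 0 had an adjusted p under 0.05, against 5.22%, and 0 had all 3 wells outside the DMSO range, against 1.49%. Of the 7, 2 (*IL6* and *LCN2*) had an unadjusted edgeR p under 0.05. The panel's share at that p alone was not counted, so the 2 are not read as a result. By the criteria DESeq2 called 0, and its adjusted p for *IL6* was 0.0452. The median log2 fold change of the 7 was 0.37, beside 0.04 for all genes tested. The exact permutation test over the 969 choices of 3 wells out of 19 can reach 0.00103 at the lowest, and it was run for 7 genes with each of these herbs.

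**Figure D2:**
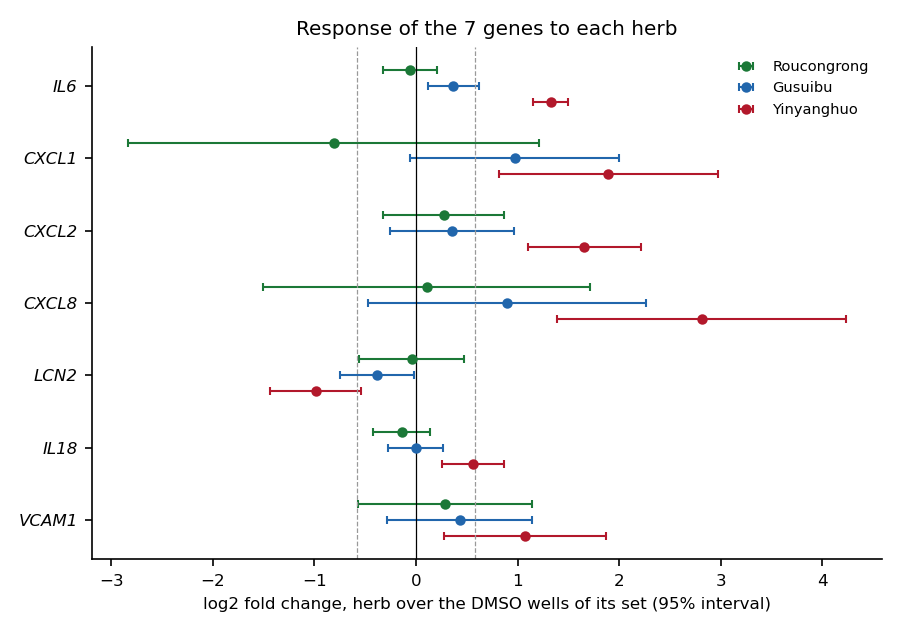
Log2 fold change of each of the 7 genes (rows) over the DMSO wells of its set, with its 95% interval from the edgeR fit, for the 3 herbs; dashed lines mark the fold criteria of 1.5 and 0.67. The genes were selected on the Yinyanghuo contrast, so its intervals show precision only and test nothing. The Roucongrong intervals all include 0, and those of Gusuibu exclude it for *IL6* and *LCN2* before adjustment.

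The response to Roucongrong and to Gusuibu was compared directly as a difference of the 2 log2 fold changes. None of the 7 differences had an adjusted p under 0.05 by edgeR, against 6.55% of 412 panel genes, or by DESeq2. For 1 (*IL6*) the unadjusted edgeR p was under 0.05, and the panel's share at that p alone was not counted. For *IL6* the Roucongrong response was lower by 0.45 on the log2 scale (95% interval -0.82 to -0.07, edgeR adjusted p = 0.156). For *CXCL1* the difference was -1.81 with an interval from -3.90 to 0.27 (adjusted p = 0.324), and for *LCN2* it was 0.34 (-0.26 to 0.94, adjusted p = 0.576). The intervals of *CXCL2* (-0.95 to 0.77), *VCAM1* (-1.27 to 1.0) and *CXCL8* (-2.91 to 1.42) leave room for folds of over 1.5 either way. For *IL18* the difference was -0.15 with an interval from -0.51 to 0.22. Its unadjusted edgeR p of 0.542 is larger than this interval implies, so the interval is too narrow to exclude such a fold.

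Differences that involve Yinyanghuo are given without a test. The *IL6* response was larger with Yinyanghuo than with Roucongrong by 1.39 (SE 0.19) and than with Gusuibu by 0.94 (SE 0.19) on the log2 scale. For *CXCL2* the corresponding values were 1.40 (SE 0.42) and 1.31 (SE 0.41), for *IL18* 0.71 (SE 0.18) and 0.56 (SE 0.19), and for *LCN2* -0.94 (SE 0.32) and -0.60 (SE 0.32). The errors of *IL18* come from the same fit as its interval above, which was too narrow, so they may be too small. *CXCL8* (2.69, SE 1.06, and 1.94, SE 1.09) and *CXCL1* (2.73, SE 1.02, and 0.91, SE 0.82) had errors of about 1, and for *VCAM1* (0.79, SE 0.57, and 0.65, SE 0.58) the difference was of the size of its error.

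The DMSO wells themselves were not at the same level in the 3 sets. On CPM scaled over all 57 wells, *IL6* averaged 70550 ± 12267 CPM (SD, n = 16) in the Roucongrong set, 41590 ± 6697 in the Gusuibu set and 40005 ± 3385 in the Yinyanghuo set. The DMSO wells of the first 2 sets touched in their ranges, 52710 to 97466 against 32346 to 52939. The fitted difference between them was 0.76 on the log2 scale (SE 0.07, edgeR adjusted p = 1.8e-13), a fold of 1.70, in a panel where 22.6% of the 412 genes differed at an adjusted p under 0.05. Beside it, the log2 fold change of *IL6* was 0.37 with Gusuibu and 1.33 with Yinyanghuo. *LCN2* differed the other way, by -0.29 (SE 0.11, adjusted p = 0.0487), and these were the 2 of the 7 genes that passed. *CXCL1* (-0.84, SE 0.39, adjusted p = 0.121), *CXCL8* (0.84, SE 0.47, adjusted p = 0.218) and *CXCL2* (-0.28, SE 0.17, adjusted p = 0.273) did not pass. *IL18* differed by 0.03 with an interval from -0.12 to 0.17, and *VCAM1* by 0.25 (-0.19 to 0.69).

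Over the 6 groups, the order of mean *IL6* was Yinyanghuo (101766 CPM), the Roucongrong DMSO wells (70550), Roucongrong (68462), Gusuibu (55081), the Gusuibu DMSO wells (41590) and the Yinyanghuo DMSO wells (40005). Each neighbouring pair of groups overlapped in range, so that the highest Roucongrong DMSO well, at 97466 CPM, was above the lowest Yinyanghuo well, at 80174. The Yinyanghuo wells also had the highest mean of *CXCL1*, *CXCL2* and *VCAM1*, with ranges that overlapped those of the next group. For *IL18* they came first by a gap (2858 CPM at the lowest against 2789 in the highest Gusuibu well). For *CXCL8* they had the highest mean, and their lowest well (237) was above the highest Roucongrong well (213). Single DMSO wells reached 242 CPM of *CXCL8* in the Yinyanghuo set and 489 in the Roucongrong set. For *LCN2* the Yinyanghuo wells came last, at 544 to 902 CPM, below the 926 of the lowest Gusuibu well. In the Roucongrong set, *LCN2* reached down to 663 CPM in a treated well and 665 in a DMSO well.

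Among the 48 DMSO wells, centred within each set, no pair of the 7 genes was related past an adjusted p of 0.05. Over the 21 pairs, Pearson's r lay between -0.38 and 0.30, and 13 were positive. The strongest was that of *IL6* and *LCN2*, with r = -0.38 (permutation p = 0.0134, adjusted p = 0.227) and Spearman's rho = -0.32 (permutation p = 0.0318, adjusted p = 0.314). It was -0.39 without the 2 wells farthest from the median of *IL6*, and -0.54, -0.21 and -0.28 within the Roucongrong, Gusuibu and Yinyanghuo sets. *IL6* and *IL18* followed with r = 0.30 (permutation p = 0.0268, adjusted p = 0.227). Among the chemokines, r was 0.01 for *CXCL1* and *CXCL2*, 0.18 for *CXCL2* and *CXCL8* and -0.32 for *CXCL1* and *CXCL8* (permutation p = 0.0325, adjusted p = 0.227). The sets did not share a sign for *CXCL2* and *CXCL8*, with r = -0.31, 0.48 and 0.50 within the Roucongrong, Gusuibu and Yinyanghuo sets.

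**Figure D3:**
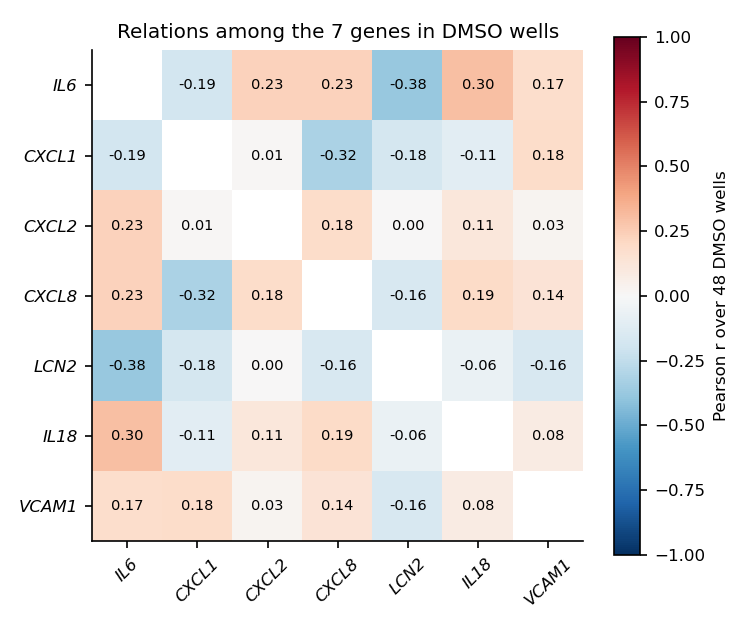
Pearson's r of set-centred log2 CPM between each pair of the 7 genes over the 48 DMSO wells, on a colour scale from -1 to 1. The cells are pale throughout, from -0.38 for *IL6* with *LCN2* to 0.30 for *IL6* with *IL18*.

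The spread between DMSO wells was set beside the spread that counting alone would give. The part of counting noise in these correlations was not tested. The DMSO wells of a set varied in *IL6* with a coefficient of variation of 7.91% to 17.4%, where counting alone would give 1.82% to 2.90%. In *IL18* they varied by 10.9% to 14.4%, where counting would give 10.1% to 12.8%, and in *CXCL8* by 96.1% to 122%, with counting at 42.9% to 75.6%. The panel genes whose levels were most like those of *IL6* over these wells were *CDC42* (r = 0.73), *HIF1A* (0.71) and *CCNA2* (0.70), out of 215 with a mean count of at least 5. For *CXCL8* the highest values were those of *CYP4V2*, *CDC42* and *MAPK14*, all between 0.34 and 0.35. These are descriptions over wells that share sets, reads and total counts.

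Other genes of the pathway were described from 4 lists. Of 35 other cytokines and chemokines listed, 21 were on the panel, and 16 of these had a mean count under 1. None had an adjusted p under 0.05 with Roucongrong or Gusuibu by edgeR, beside 2.99% and 5.22% of the panel, and 1 of 20 and 0 of 20 tested met the DEG criteria, beside 10.2% and 9.45%. The 1 was *CCL5*, which had a single read in a single treated well and is named after its value was seen. The median log2 fold change of the list was -0.54 with Roucongrong and 0.52 with Gusuibu, beside -0.04 and 0.04 for all genes, in genes that are mostly at or under the floor. *IL23A*, the p19 subunit of IL-23, had the most reads. It had 102, 213 and 33 counts with Roucongrong against 65 to 349 in DMSO (adjusted p = 0.899), and 64, 347 and 167 with Gusuibu against 51 to 269 (adjusted p = 0.547). *LIF*, a cytokine that shares gp130 with IL-6, had log2 fold changes of 0.00 (SE 0.31) and 0.13 (SE 0.23). *CSF2*, which encodes GM-CSF, had 5, 8 and 6 counts with Roucongrong against 0 to 9 (log2 1.23, SE 0.61, adjusted p = 0.312) and 1 to 3 counts with Gusuibu.

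With Yinyanghuo, which is described only, 2 of the 21 other cytokine genes met the criteria, beside 15% of the panel. They were *IL23A* (76, 312 and 232 counts against 46 to 340, log2 1.12, SE 0.43) and *IL4*, which had 2 reads in 1 treated well and is named after its value was seen. *LIF* was at -0.12 (SE 0.26) and *CSF2* at 1.01 (SE 0.72). The median of the 21 genes was -0.12, beside -0.13 for all genes.

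Of the cytokine and chemokine receptors, 13 of 23 listed were on the panel, each with a mean count under 5. Of the 13, 1 rose with Roucongrong at an adjusted p under 0.05, beside 2.99% of the panel with such a p. This was *TNFRSF1A*, the main receptor of TNF (log2 2.70, SE 0.62, adjusted p = 0.0103). It rested on 1 well: the counts were 3, 2 and 18 against 0 to 4 in DMSO, and without well 3 the log2 fold change was 1.13 with an adjusted p of 0.658. With the label's well number as a replicate block, which leaves only 3 DMSO wells to compare, it was 1.92 (adjusted p = 0.804). *IL1R1*, named after its values were seen, also met the criteria with Roucongrong through well 3, with 1, 0 and 13 counts (log2 2.49, adjusted p = 0.115). These were 2 of 13, beside 10.2% of the panel. With Gusuibu 1 of the 13 met the criteria, beside 9.45%. It was *TNFRSF1A*, at 1, 5 and 7 counts against 0 to 6 (log2 1.35, SE 0.56, adjusted p = 0.192). *IL6R*, the ligand-binding chain of the IL-6 receptor, had log2 fold changes of 0.89 (SE 0.54) with Roucongrong, -0.84 (SE 0.63) with Gusuibu and, described only, 1.47 (SE 0.61) with Yinyanghuo, where it had 13, 4 and 5 counts against 0 to 10. *IL10RB* and *IL13RA1* stayed at or below 9 counts in every herb well.

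Only 3 of 25 listed NF-kB and AP-1 factors and their regulators were on the panel, and none of the 3 is an NF-kB subunit or inhibitor. *JUNB*, an AP-1 subunit, had a log2 fold change of -0.07 (SE 0.32, adjusted p = 0.9) with Roucongrong, -0.40 (SE 0.37, adjusted p = 0.632) with Gusuibu and 0.76 (SE 0.39, described only) with Yinyanghuo. *FOS* had 0, 3 and 10 counts in the Yinyanghuo wells against 0 to 6 in DMSO (log2 1.94, SE 0.80), and *CEBPD* had no read in them. Neither passed a test with the other herbs.

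Of 16 other textbook NF-kB targets, 11 were on the panel. *SOD2*, the mitochondrial superoxide dismutase, was the one that fell at an adjusted p under 0.05, with Roucongrong, at 9, 15 and 8 counts against 17 to 61 (log2 -1.05, SE 0.28, adjusted p = 0.0281). In CPM, 2 of the 3 wells were below every DMSO well. The adjusted p stayed between 0.0123 and 0.0349 with the other scalings, DESeq2, either filter, without well 2 and over all 57 wells. The log2 fold change was -1.02 without well 1 (adjusted p = 0.102), -0.88 without well 3 (adjusted p = 0.451) and -0.78 against DMSO wells of the other sets (adjusted p = 0.105). It was -0.87 with the number in the label as a replicate block, which leaves only 3 DMSO wells to compare (adjusted p = 0.702). *BCL2L1*, named after its values were seen, met the criteria in the same direction (log2 -0.80, adjusted p = 0.266). With Roucongrong 2 of the 10 tested thus met the criteria, beside 10.2% of the panel. At an adjusted p under 0.05 it was 1, beside 2.99%. *TIMP1*, an inhibitor of matrix proteases, had 0.35 (SE 0.16, adjusted p = 0.312) with Roucongrong, -0.10 (SE 0.15) with Gusuibu and 0.04 (SE 0.16) with Yinyanghuo, and *CCND1*, which encodes cyclin D1, had -0.35 (SE 0.18, adjusted p = 0.319), 0.24 (SE 0.18) and 0.39 (SE 0.17). None of the 11 tested with Gusuibu or the 10 tested with Yinyanghuo met the criteria, beside 9.45% and 15% of the panel. Its median log2 fold change with Yinyanghuo was 0.21, beside -0.13 for all genes and 1.33 for the 7 genes, which were selected there.

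**Figure D4:**
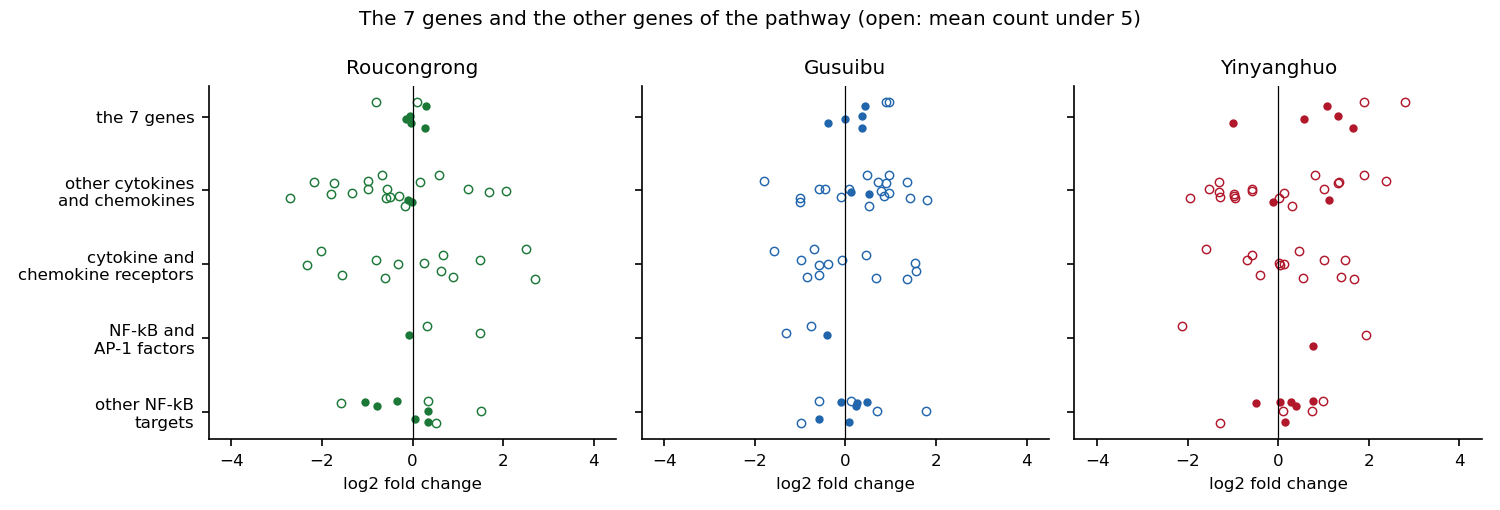
Log2 fold change (horizontal axis) of the 7 genes and of the 4 lists of other pathway genes (rows) with each herb (panels), with open circles for genes whose mean count over all wells is under 5. The filled circles of the other lists run from -1.05 (*SOD2* with Roucongrong) to 1.12 (*IL23A* with Yinyanghuo), and 5 of the 7 genes lie above 1 with Yinyanghuo.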

How the data were processed

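For each of 57 wells the authors deposited raw counts of ligated probe reads for 412 genes, not normalized. Per the labels the first read of each pair was used, reads that differed at over 3 bases had been removed according to the study's methods, and the submitters' processing notes name Bowtie2 2.2.4 and DESeq2 1.22.1. The genome build is not given in the sources used here. Genes are listed by Entrez identifier, and all 412 matched a symbol. Without molecular identifiers, the 3-count floor covers counting error only. Wells were grouped by their labels, which do not say whether they were separate cultures, so p-values measure the spread between wells. No pair of wells agreed within sampling noise, with a smallest chi-squared per degree of freedom of 1.69.

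Within a set, herb wells were set against DMSO wells with edgeR 4.0.16 in R 4.3.3 (quasi-likelihood F test, TMM, all genes with a nonzero total, Benjamini-Hochberg over all of them). Differences between herbs and between DMSO sets were contrasts of 1 model each. Single genes were tested by a two-sided exact permutation of mean log2 CPM (prior count 2), and relations among DMSO wells by 100000 permutations within sets. Intervals are at 95% and come from the edgeR fit, so they include the spread between wells. Alternatives were RLE, total count or TMM factors without the 7 genes, DESeq2 1.42.0, a mean count of at least 5, filterByExpr, leaving out each treated well, the label's well number as a replicate block, all 57 wells in one fit, DMSO wells of the other sets, and for correlations a prior count of 0.5 and total count CPM.

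The 7 genes, the 4 lists (99 genes) and the motifs were chosen with earlier results of these data known, and the windows printed were set after the sequences were seen. From each list, the 3 genes with the highest mean count were named, with any that had an adjusted p under 0.05. For *IL6* and *CXCL8*, the 3 panel genes with the highest r were named. Promoter windows are from RefSeq (GRCh38.p14). Figures were drawn with matplotlib 3.10.9.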

Additional observations from a re-analysis of the deposited data

Results flagged for a closer look

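*CXCL1* was flagged because its 3 Roucongrong wells were all below and its 3 Yinyanghuo wells all above the mean log2 CPM of their own DMSO wells. The log2 fold changes were -0.81 (SE 0.99) with Roucongrong and 1.89 (SE 0.52) with Yinyanghuo. The Roucongrong wells had 1 count each, and this difference was not tested, since the gene was selected on Yinyanghuo.

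*IL18* was flagged for the same pattern. Its wells deviated from their DMSO mean by -0.03, -0.27 and -0.10 on the log2 scale with Roucongrong and by 0.50, 0.51 and 0.66 with Yinyanghuo, with fitted log2 fold changes of -0.14 (SE 0.14) and 0.56 (SE 0.15). This difference was not tested either.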

How the results depend on the processing

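With Roucongrong the count of called genes among the 7 was 0 under each alternative except the DMSO wells of the other sets, where it was 2 (*IL6* at 0.72, reversed, and *CXCL1* at -1.68). With Gusuibu it was 0 except for 1 (*CXCL1*) with RLE and with total counts, and 2 (*CXCL1*, *CXCL2*) against DMSO wells from the other sets, where *IL6* turned to -0.0304. With Yinyanghuo it ran from 5 to 7, also when single wells were left out, and either filter on low counts removed *CXCL1* and *CXCL8*. Against DMSO wells of the other sets, *IL6* with Yinyanghuo fell from 1.33 to 0.85 and *IL18* from 0.56 to 0.39. There *CXCL2* (1.57) and *CXCL8* (2.07) were also lower, *CXCL1* (2.33) and *VCAM1* (1.18) were higher, and *LCN2* was at -0.91. The IL6 difference between Roucongrong and Gusuibu passed only under the replicate block (1 gene, -0.42). The 2 genes that differed between DMSO sets were *IL6* and *LCN2* under each alternative. With total count CPM, 1 of the 21 pairs was related at an adjusted p under 0.05, *IL6* and *LCN2* (r = -0.51, permutation p = 0.00054, adjusted p = 0.0113; rho = -0.47, permutation p = 0.00111; r = -0.53 without the 2 farthest wells and -0.69, -0.25 and -0.63 within the Roucongrong, Gusuibu and Yinyanghuo sets). The causes were not tested.

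Whether the number in the well label pairs the wells is not known. Deviations of same-numbered wells correlated between -0.41 and 0.38, and differently numbered wells were not compared. The replicate block made *CXCL2* negative with Roucongrong (-0.0106) and Gusuibu (-0.0706) and *LCN2* positive with Roucongrong (0.28), and left 5 genes past the criteria with Yinyanghuo, without *CXCL1*. Over the whole panel it moved the genes past the criteria from 41 to 26 with Roucongrong, from 38 to 22 with Gusuibu and from 60 to 37 with Yinyanghuo, and those with an adjusted edgeR p under 0.05 from 12 to 3 with Roucongrong and from 21 to 0 with Gusuibu. In these fits of a single set, DMSO wells numbered above 3 share their number with no herb well. Under the block they do not bear on the fold change, which leaves only 3 DMSO wells to compare. The part of this loss in the lower counts was not tested.

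Other reversals were of values near 0. *IL18* with Gusuibu was 0.0591 with RLE, 0.0702 with total counts, 0.038 with DESeq2, 0.0452 with a minimum mean count, 0.0479 with filterByExpr, 0.055 with the replicate block, 0.0188 over all 57 wells and 0.071 against other DMSO wells, and between -0.0906 and 0.0379 with wells left out. Its DMSO difference was -0.00203 with RLE, -0.0554 with total counts, -0.0171 without the 7 genes in the TMM factors, -0.0119 with DESeq2, -0.0295 with a minimum mean count and -0.046 with filterByExpr. Leaving out wells moved Roucongrong *CXCL8* between -0.30 and 0.52, *LCN2* between -0.34 and 0.25 and *VCAM1* between -0.0932 and 0.67, and the Roucongrong minus Gusuibu difference of *CXCL2* between -0.24 and 0.0145 and of *VCAM1* between -0.53 and 0.26. The median log2 fold change of all genes with Yinyanghuo was -0.13 with TMM and 0.12 with DESeq2, and the 7 genes kept their directions there. Depth limits *CXCL1* and *CXCL8*, whose DMSO wells were mostly at or under the floor.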
